A study of Mus musculus with 2 samples.

Results

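Cells with 20% or more mitochondrial UMIs were selected on the share of their RNA molecules that came from the 37 genes of the mitochondrial genome, each molecule being counted once by its unique molecular identifier (UMI). They numbered 1672 of 23657 cells. The Olaparib + LLY-283 library held 86 of them among 16115 cells (0.534%, exact Clopper-Pearson 95% interval 0.427% to 0.659%), and the Combo library held 1586 among 7542 cells (21.0%, 20.1% to 22.0%). All intervals given here cover counting error only. These cells are called high-mitochondrial cells below, and the others are called cells under 20%.

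The cells came from tumors that grew in BALB/c mice after 200000 EMT6 cells, a mouse mammary carcinoma line, had been placed under the skin. The Olaparib + LLY-283 group received LLY-283, an inhibitor of the arginine methyltransferase PRMT5, at 50 mg/kg on 3 days followed by 4 days without it, together with Olaparib, an inhibitor of PARP, at 50 mg/kg daily. The Combo group received both drugs on the same schedule and also 200 µg of an antibody against PD-1 every 3 days. Each group was 1 library made from the tumors of 3 mice pooled, dead cells had been removed with beads before loading, and RNA was counted by droplet 3′ single-cell sequencing. No group without treatment was analysed here, and neither the mice nor replicate libraries can be separated. The treatments therefore cannot be told apart from the libraries, and no difference given here has a test. The Olaparib + LLY-283 cells had a median total of 7376 UMIs, and the Combo cells had 3613.5. The lowest total was 500 UMIs in both libraries.

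The mitochondrial genome codes for subunits of the respiratory chain and for the ribosomal RNAs (rRNAs) and tRNAs of the organelle's own ribosome, while all other mitochondrial proteins are made from nuclear genes. Cells that have lost cytoplasmic RNA, for example through a torn membrane, keep RNA enclosed in mitochondria, so a high mitochondrial share is widely used as a sign of damage. Cells rich in mitochondria, such as muscle cells, can also have a high share.

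The limit was not a natural gap. The cells closest to it in the Olaparib + LLY-283 library had 123 mitochondrial of 609 UMIs (20.2%) on the inside and 211 of 1059 (19.9%) on the outside. Those of the Combo library had 113 of 561 (20.1%) and 168 of 844 (19.9%). Combo cells numbered 213 at 5% to 10%, 179 at 10% to 20%, 255 at 20% to 30% and 461 at 30% to 40%. Among these steps the Combo count was lowest just below the limit. Cells of the Olaparib + LLY-283 library numbered 401, 185, 37 and 21 at the same steps. Of the 39 cell barcodes that occurred in both libraries, 1 marked a high-mitochondrial cell of the Olaparib + LLY-283 library and 10 marked such a cell of the Combo library, with 0 doing so in both.

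Sequences are shown for both mitochondrial rRNAs, which held most mitochondrial UMIs of these cells, for a mitochondrial mRNA, and for nuclear RNAs that were higher in these cells than in the cells under 20% as a whole. The 3′ method primes on runs of A, so 1 stretch of each mitochondrial rRNA and of mt-Co1, which codes for a subunit of cytochrome c oxidase, is shown with its longest run of A in capitals. All are on the plus strand of GRCm38, at chrM:692-721, chrM:1476-1505 and chrM:6104-6133.
mt-Rnr1: ttcagcaaaccctAAAAAggtattaaagta
mt-Rnr2: tttaaacttgctAAAAAAAcaacaaaatca
mt-Co1: ttactactccggAAAAAAAgaacctttcgg
The gene mt-Rnr1 (chrM:70-1024), the small rRNA, had no run of 6 or more A, whereas mt-Rnr2 (chrM:1094-2675), the large rRNA, had 4. Among the mRNAs mt-Cytb had 0 such runs and mt-Nd2 had 3. A link between these runs and the UMI counts was not tested. The nuclear pseudogene Gm28438 (chr1:24612775-24613119, minus strand) equalled mt-Nd3, a subunit of respiratory complex I, at 344 of 345 bases. Their first 30 bases, at chrM:9459-9488 on the plus strand and chr1:24613090-24613119 on the minus strand, are shown with the base that differs in capitals (T3C, counted from the first base of mt-Nd3).
mt-Nd3: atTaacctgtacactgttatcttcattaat
Gm28438: atCaacctgtacactgttatcttcattaat
UMIs of these 2 genes can therefore be exchanged by the alignment, and the level of Gm28438 is uncertain. The microRNA gene Mir6236, of 123 bases, was among the nuclear genes that were higher. Its UMIs were counted over the whole gene and do not measure its mature RNA. The mature RNA (chr9:110281353-110281371, plus strand, RefSeq on GRCm38.p6) is shown with its seed in capitals.
mmu-miR-6236: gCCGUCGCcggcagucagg

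High-mitochondrial cells were shallow. In the Olaparib + LLY-283 library their totals ran from 500 to 1499 UMIs with a median of 652, and the medians of mitochondrial and nuclear UMIs were 231 and 419.5. Combo totals ran from 500 to 6108 with a median of 746, and these medians were 312 and 413. Nuclear depth was thus alike in the high-mitochondrial cells of both libraries, with quartiles of 304.5 and 541 UMIs in the first and 371 and 473 in the second. Cells under 20% had medians of 7319 and 14223.5 nuclear UMIs. The mitochondrial UMIs of these cells were 84 and 223 at the median. More mitochondrial UMIs relative to nuclear ones in the high-mitochondrial cells follow from the rule that chose them and are no finding.

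**Figure D1:**
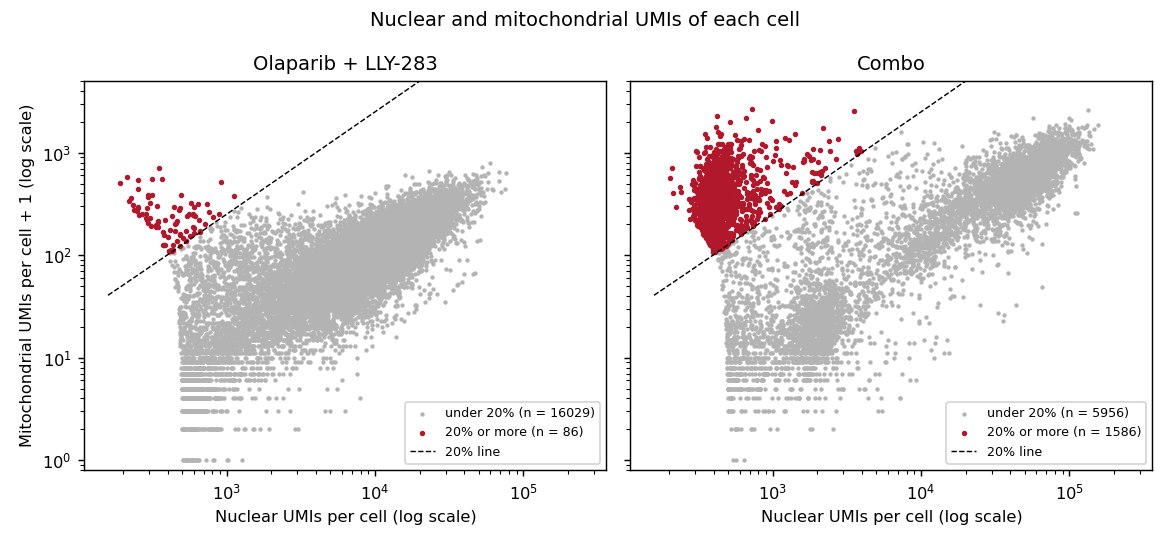
Nuclear UMIs per cell (x axis, log scale) against mitochondrial UMIs plus 1 (y axis, log scale) in each library, with 1 point per cell and a dashed line at 20% mitochondrial UMIs. The cells at or above the line lie at a narrow range of nuclear depth, with medians of 419.5 and 413 nuclear UMIs, while the cells below it reach far greater depth.

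The minimum of 500 UMIs bears on these values, since mitochondrial UMIs count towards it. No cell under 20% had fewer than 415 nuclear UMIs in the Olaparib + LLY-283 library or 426 in the Combo library, whereas high-mitochondrial cells went down to 191 and 203. Of the cells with totals under 1000 UMIs, high-mitochondrial cells made up 5.86% of 1347 in the Olaparib + LLY-283 library but 66.1% of 1883 in the Combo library. The libraries thus differed in how many shallow cells were rich in mitochondrial RNA, and shallow cells under 20% (fewer than 1000 nuclear UMIs) were present in both, 1328 and 661 of them. In the Combo library 52 high-mitochondrial cells had over 2000 UMIs, against 0 in the other.

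The mitochondrial share ranged up to 73.3% in the Olaparib + LLY-283 library, with a median of 32.2% (quartiles 24.6% and 47.1%). It ranged up to 84.6% in the Combo library, with a median of 42.0% (quartiles 33.5% and 52.0%). Across the Combo cells, divided at 30%, 40%, 50% and 60%, median nuclear UMIs stayed between 398 and 456, and median mitochondrial UMIs were 161, 227, 323.5, 491.5 and 806. The steps divide the share itself, so more mitochondrial relative to nuclear UMIs at higher steps is set by them and is no finding. Nuclear depth at the median varied little over the steps in the Combo library, though the minimum on total UMIs also bears on it. Median nuclear UMIs of the Olaparib + LLY-283 cells were lower at each of the same steps, at 530, 447, 289, 270.5 and 252, in groups of 37, 21, 9, 10 and 9 cells. Thinned to 300 nuclear UMIs, high-mitochondrial cells had a median of 245.5 and 243 nuclear genes, against 240 and 238 in cells under 20%. The shallow cells under 20% had 226 and 248, below the high-mitochondrial cells in the Olaparib + LLY-283 library and above them in the Combo library.

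The mitochondrial RNA of these cells was mainly rRNA. In the Olaparib + LLY-283 library mt-Rnr1 and mt-Rnr2 held 80.5% of mitochondrial UMIs in the high-mitochondrial cells, 33.9% in cells under 20% and 65.0% in the shallow cells under 20%. The Combo shares were 91.3%, 28.7% and 66.5%. The order was the same in both libraries, with the high-mitochondrial cells above the shallow cells and these above all cells under 20%. Per 100 nuclear UMIs, high-mitochondrial cells of the 2 libraries held 45.9 and 74.3 rRNA UMIs against 0.389 and 0.368, and 11.1 and 7.07 UMIs of mitochondrial mRNA against 0.758 and 0.915. These amounts describe the cells and are no finding, since a high mitochondrial share chose them.

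**Figure D2:**
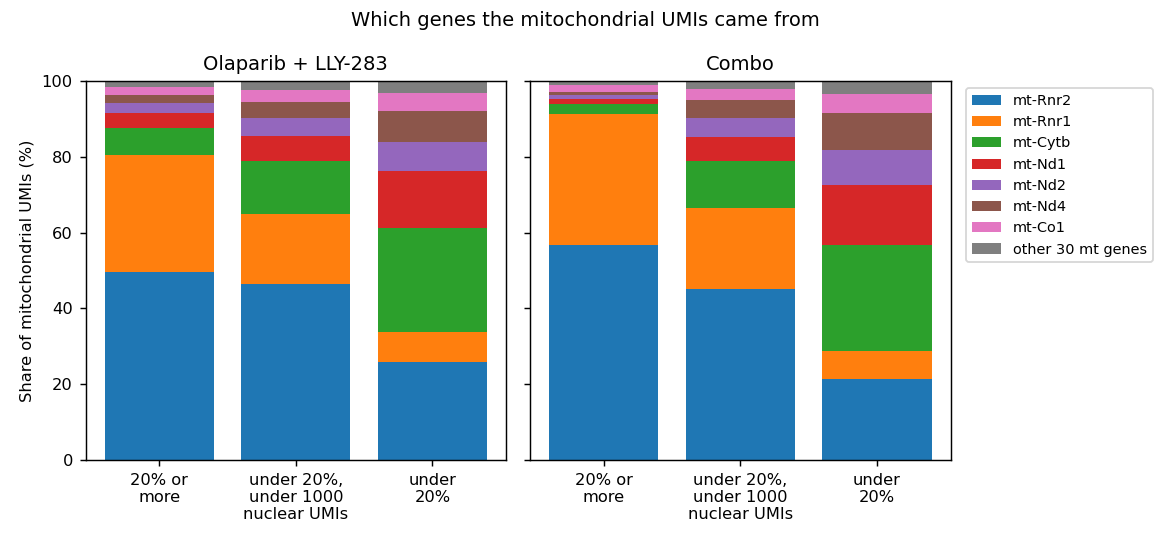
Share of all mitochondrial UMIs (y axis, percent) held by mt-Rnr2, mt-Rnr1, named mRNAs and the remaining genes in high-mitochondrial cells, cells under 20% and shallow cells under 20% of each library. The 2 rRNAs fill 80.5% and 91.3% of the bars of high-mitochondrial cells and 33.9% and 28.7% of those of cells under 20%.

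Both rRNAs held larger shares than in cells under 20%, and mt-Rnr1 was the more shifted as a ratio. It held 30.8% and 34.5% of mitochondrial UMIs in the high-mitochondrial cells against 8.05% and 7.17% in cells under 20%, and mt-Rnr2 held 49.6% and 56.8% against 25.8% and 21.5%. The ratio of mt-Rnr2 to mt-Rnr1 UMIs was 1.61 and 1.65 in high-mitochondrial cells, against 3.21 and 3.00 in cells under 20% and 2.50 and 2.10 in the shallow ones. The ratio was alike in the high-mitochondrial cells of both libraries although their numbers differed greatly.

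Among the mRNAs, mt-Cytb, a subunit of complex III, led in all of these classes. It held 37.3% and 30.2% of mitochondrial mRNA UMIs in the high-mitochondrial cells, with the Combo value second here and below, against 41.6% and 39.3% in cells under 20%. The complex I subunits mt-Nd1 (19.6% and 14.2% against 22.8% and 22.2%) and mt-Nd4 (10.9% and 11.1% against 12.1% and 13.7%) were also lower as shares of mRNA, and mt-Nd2 stood at 14.2% and 12.5% against 11.7% and 13.1%. The share of mt-Co1 was higher, at 10.3% and 21.2% against 7.21% and 7.20%. Of all mitochondrial UMIs, rRNA included, each of these mRNAs held less in high-mitochondrial cells, with mt-Cytb at 7.24% and 2.62% against 27.4% and 28.0% and mt-Co1 at 2.00% and 1.85% against 4.76% and 5.13%.

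Few of these cells were selected without the rRNAs. When mt-Rnr1 and mt-Rnr2 were left out of both the mitochondrial and the total UMIs, 8 of the 86 cells (9.30%, 4.10% to 17.5%) and 54 of the 1586 cells (3.40%, 2.57% to 4.42%) remained at 20% or more. These were 0.0496% and 0.716% of all cells of the libraries.

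High-mitochondrial cells were not alike in their mitochondrial RNA, and 2 kinds were set apart at 80% rRNA among mitochondrial UMIs, a limit chosen after the values had been seen. Of the Combo cells 1448 (91.3%) lay at or above it and 138 (8.70%) below, against 50 (58.1%) and 36 (41.9%) of the other library. Cells below it had more mitochondrial mRNA, with medians of 118.5 against 15 UMIs in the Combo library and 94 against 14.5 in the other. The cells with 10 or more UMIs of a fibroblast marker list, 15 in the Combo library and 8 in the other, all had under 80% rRNA. Of the cells with 10 or more UMIs of a neutrophil list, 3 of 24 and 0 of 13 did.

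The nuclear levels of the 2 kinds are given as UMIs per 1000000 nuclear UMIs (CPM), summed over cells, with the cells under 80% rRNA first. In the Combo library Col3a1, a fibrillar collagen made by fibroblasts, stood at 1251 and 568 CPM, and Col1a2 at 3637 and 1313. For the Olaparib + LLY-283 cells Col3a1 stood at 1515 and 315 and Col1a2 at 7991 and 734. S100a8 and S100a9, the calcium-binding proteins that neutrophils make in quantity, summed to 6049 and 5662 CPM in the Combo library and 731 and 19874 in the other. The fibroblast genes were therefore higher on the side of mRNA-rich mitochondrial UMIs in both libraries, but few cells carried much of it. The fibroblast list had 586 UMIs in the 138 Combo cells of that side, and 335 of these lay in the 15 fibroblast-rich cells. For the Olaparib + LLY-283 library 119 of 197 lay in 8 of 36 cells. S100a8 and S100a9 were higher on the other side in that library alone. Gm42418, a noncoding RNA gene that overlaps an annotated rRNA gene and is described below, was alike in both kinds, at 25305 and 24826 CPM in the Combo library and 10237 and 9491 in the other.

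Lineage markers were read in cells thinned to 300 nuclear UMIs, because a share of cells with a UMI depends on depth. This kept 66 high-mitochondrial cells of the Olaparib + LLY-283 library, leaving out 20, and 1563 of the Combo library, leaving out 23. The markers were Krt8 or Krt18, the simple-epithelium keratins of the tumor cells, Tyrobp, a signalling adaptor of myeloid cells, S100a8 or S100a9, and Col3a1. Each share is given beside that in a class of the same library chosen for UMIs of another lineage's list, the neutrophil-rich cells for keratins and Col3a1 and the fibroblast-rich cells for the myeloid genes. Both are cells under 20% with 10 or more UMIs of 1 list and fewer of the other, with 830 neutrophil-rich and 9424 fibroblast-rich cells in the Olaparib + LLY-283 library, against 1468 and 1500 in the other. Fibroblast-rich means this limit alone and names no cell type: in the first library the class held 9424 of 16029 cells under 20%, and of all those 16029 cells 83.9% had a keratin and 77.5% a Col3a1 UMI. Before thinning, these classes had medians of 715.5 and 10192.5 nuclear UMIs in the Olaparib + LLY-283 library, and 1975.5 and 35757 in the other.

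A keratin UMI was found in 21.4% of the Combo high-mitochondrial cells (19.4% to 23.5%), in 15.4% of cells under 20% and in 7.63% of the neutrophil-rich cells. The Olaparib + LLY-283 shares were 19.7% (10.9% to 31.3%), 20.2% and 13.5% (11.2% to 16.0%). Without thinning they were 30.3% of Combo high-mitochondrial cells and 32.6% of those of the other library. Keratin levels differed little, at 768 CPM in high-mitochondrial and 812 in other cells of the Combo library and at 811 and 874 in the other. No high-mitochondrial cell of the Combo library had more than 5 keratin UMIs. Of the shallow cells under 20%, 19.1% in the Combo library and 12.7% in the other had a keratin UMI after thinning.

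S100a8 or S100a9 was the marker found most often in these cells. It had a UMI in 35.5% of the Combo high-mitochondrial cells, against 31.1% of cells under 20% and 5.07% of fibroblast-rich cells, and in 46.7% without thinning. The shares of the Olaparib + LLY-283 library were 34.8%, 10.3% and 2.90%, with 40.7% unthinned. The shallow cells under 20% were higher than the high-mitochondrial cells in both libraries, at 43.9% and 53.4%. In CPM the pair stood at 5718 in high-mitochondrial against 1846 in other cells of the Combo library, and at 10283 against 505 in the other. A single Combo cell held 536 of these UMIs.

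Tyrobp was below the shallow cells under 20% in both libraries, with a UMI in 5.25% against 9.53% of Combo cells and 13.6% against 26.7% of the others, and with 263 against 413 CPM and 340 against 1097. Against all cells under 20% the order differed between the libraries. It had a UMI in 5.25% of the Combo high-mitochondrial cells, 18.0% of cells under 20% and 1.13% of fibroblast-rich cells, and in 13.6%, 5.53% and 0.615% of those classes in the Olaparib + LLY-283 library. Another 20 random thinnings of the Combo cells gave 3.77% to 4.86%, all below the first value. Without thinning, 6.94% and 12.8% of high-mitochondrial cells had one. Its summed level in the Combo library was 263 CPM in high-mitochondrial cells and 176 in other cells, so that the order by level was the reverse of the order by share and no direction against all cells under 20% is read from either. Col3a1 had a UMI in 16.4% of the Combo high-mitochondrial cells against 11.1% of cells under 20% and 4.84% of neutrophil-rich cells, with 23.6% unthinned. The shares in the other library were 16.7% (8.62% to 27.9%), 15.0% and 7.11% (5.45% to 9.07%), with 22.1% unthinned. The intervals of the first and last overlapped there, as they did for keratins. Of the shallow cells under 20%, 17.4% in the Combo library and 12.6% in the other had a Col3a1 UMI. The classes rich in another list were deeper before thinning and were chosen to have few UMIs of the list that holds S100a8, S100a9 or Col3a1. They therefore do not measure free RNA in shallow droplets, and no share is read as above background.

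**Figure D3:**
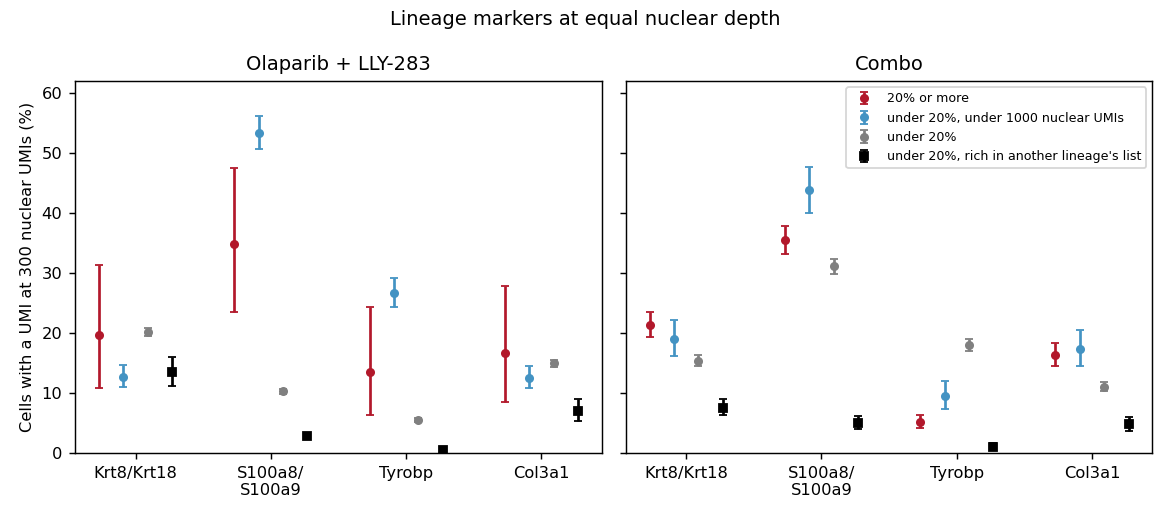
Share of cells with a UMI of each lineage marker after thinning to 300 nuclear UMIs (y axis, percent, with exact 95% intervals) in high-mitochondrial cells, cells under 20%, shallow cells under 20% and a class rich in another lineage's list, by library. The high-mitochondrial cells lie above the class rich in another list for all 4 markers in both libraries, with overlapping intervals for keratins and Col3a1 in the Olaparib + LLY-283 library, and below the shallow cells for S100a8 or S100a9 and for Tyrobp.

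The markers did not divide these cells into separate lineages. Of the Combo cells, 605 of 1563 thinned high-mitochondrial cells (38.7%) had none of the 4 markers, 352 (22.5%) had S100a8 or S100a9 alone, 189 (12.1%) keratins alone, 134 (8.57%) Col3a1 alone, 38 Tyrobp alone and 245 several. S100a8 or S100a9 was found in 32.9% of the cells with a keratin UMI and in 36.2% of those without. Col3a1 was found in 13.2% and 17.2% of the same cells. Tyrobp, the myeloid adaptor, was joined by S100a8 or S100a9 in 41.5% of its carriers against 35.2% of the others. In the Combo cells under 20% these shares were 62.9% and 24.1%, and in the shallow ones 52.4% and 43.0%. S100a8 or S100a9 was found in 42.9% of the shallow Combo cells under 20% with a keratin UMI and in 44.1% of those without. Of these shallow cells 32.8% had none of the 4 markers and 20.1% had several. The lack of division was thus not particular to the high-mitochondrial cells of the Combo library. The 66 thinned cells of the Olaparib + LLY-283 library looked more divided: 8 of 9 cells with Tyrobp had S100a8 or S100a9, against 26.3% of the cells without it, and 0 cells had both Col3a1 and a keratin.

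A few cells carried most neutrophil UMIs. Of the Combo high-mitochondrial cells, 24 had 10 or more UMIs of the neutrophil list and together held 77.3% of its 5218 UMIs, with a median of 1827.5 nuclear UMIs per cell. By the same limit 15 were rich in fibroblast markers, at a median of 1638, but held 17.0% of that list's UMIs, and 3 were rich in macrophage and 2 in skeletal muscle markers. In all, 48 cells (3.03%) were rich in some list, with a median mitochondrial share of 29.9%, and the other 1538 had medians of 410 nuclear UMIs and 42.2%. Of the Olaparib + LLY-283 cells 21 (24.4%) were rich in a list, 13 of them holding 90.1% of the 465 neutrophil UMIs and 8 holding 53.8% of the fibroblast UMIs. The 21 cells had a median of 475 nuclear UMIs, and the other 65 had 375.

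Summed over whole lists, the neutrophil genes stood at 6792 CPM in high-mitochondrial and 2124 in other cells of the Combo library, and at 12167 and 573 in the Olaparib + LLY-283 library. The fibroblast genes stood at 2559 and 2501, and at 5783 and 2608. Skeletal muscle genes stood at 565 and 103 in the Combo library and at 105 and 62 in the other. Macrophage genes were at 844 and 920, and at 314 and 450, and the pan-myeloid genes were at 1410 and 1428, and at 1413 and 560. The shallow cells under 20% were above the high-mitochondrial cells for all of these lists but 1. Their neutrophil genes were at 12356 CPM in the Combo library and 40741 in the other, and their muscle genes at 4281 and 1659. Their fibroblast genes, at 3422 and 2365, were above in the Combo library and below in the other. Lists for other cell types were low, with B cell, erythroid, mast cell and adipocyte genes all at 0 UMIs in the high-mitochondrial cells of the Olaparib + LLY-283 library. The part of these cell types in the gene differences given next was measured only by leaving out the cells rich in their markers, and was otherwise not tested.

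S100a8 and S100a9 were lower at higher mitochondrial shares in the Combo library. They summed to 13161 CPM in the cells at 20% to 30% and then to 5451, 3716, 1717 and 1288 at each further step. Without the marker-rich cells the values were 1199, 1555, 1721, 1465 and 1288, but some of those cells had been chosen for UMIs of a list that holds both genes, so these values are no check on the fall. Keratins, at 682, 833, 703, 762 and 934, and Col3a1, at 830, 676, 586, 563 and 651, had no such fall.

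**Figure D4:**
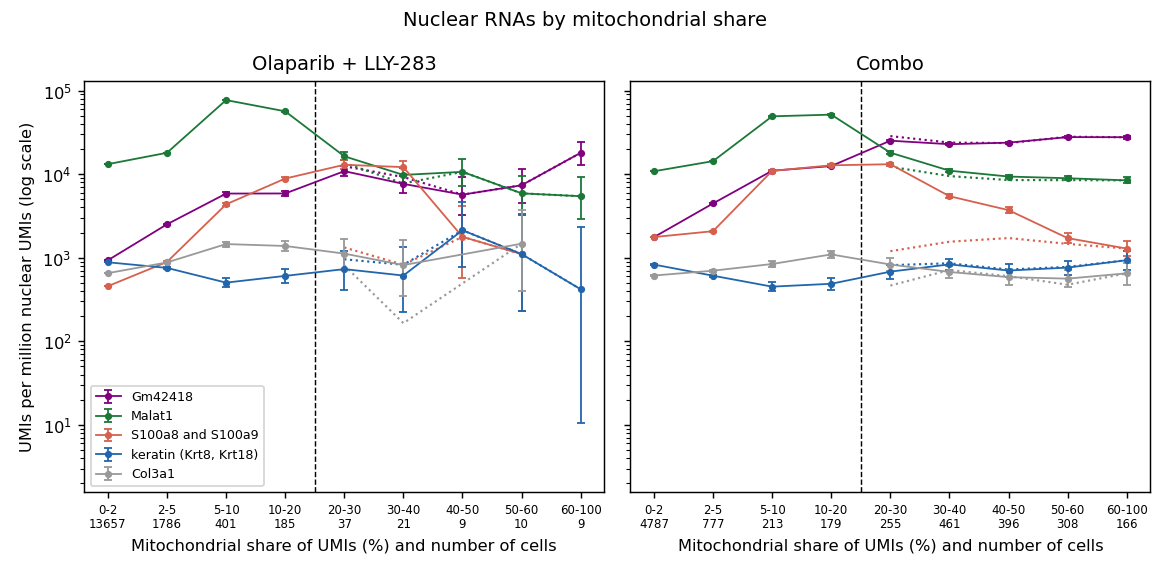
Levels in CPM of nuclear UMIs (y axis, log scale, with exact Poisson 95% intervals) of Gm42418, Malat1, S100a8 plus S100a9, keratins and Col3a1 by mitochondrial share (x axis, percent) in each library; dotted lines leave out marker-rich high-mitochondrial cells and values of 0 are not drawn. In the Combo library S100a8 plus S100a9 go from 13161 down to 1288 CPM over the steps from 20% upwards, and lie between 1199 and 1721 without the marker-rich cells, which were chosen partly on these genes.

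Nuclear genes were compared between high-mitochondrial and other cells of the same library with mitochondrial UMIs left out of the totals. Only genes with a mean of at least 100 CPM over both classes were used, and a gene is called higher or lower at a 2-fold difference. In the Combo library 23 of 1578 genes were higher (1.46%) and 2 were lower (0.127%). In the Olaparib + LLY-283 library 272 of 1663 were higher (16.4%) and 77 were lower (4.63%). The latter comparison rests on 38217 nuclear UMIs in the high-mitochondrial cells, against 768213 in the Combo library, and a gene at 100 CPM then has 3.82 UMIs. In either library a gene could pass the limit through its value in the high-mitochondrial cells alone, and then had to be higher. Combo genes that did so are named below. In the Olaparib + LLY-283 library Gm26870 and Mir6236 did so on 9 UMIs each, and Lars2 did so on 19. The count of higher genes in that library and its excess over the lower ones are thus partly set by the limit, as are counts of list members there, and nothing is read from them. Across genes, the Pearson correlation of log2(CPM + 10) between the classes was 0.950 in the Combo library and 0.775 in the other, as a description over genes, which are not independent. Most of the 1578 genes used in the Combo library thus differed by less than 2-fold when UMIs were summed over cells, and 142 were past it with a mean over cells. Genes under 100 CPM, the larger part of all 55413 nuclear genes, were not compared.

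The genes with the largest log2 ratios in the Combo library included noncoding RNAs, some of them overlapping or beside an annotated rRNA gene on chromosome 17. Gm26870, a long noncoding RNA gene, stood at 294 CPM in high-mitochondrial and 8 in other cells (log2 ratio 5.22). Mir6236 stood at 810 and 40 (4.35), and Lars2, the mitochondrial leucyl-tRNA synthetase, at 760 and 56 (3.75). Gm42418 had by far the most UMIs of them, at 24895 and 1999 CPM (3.64). CT010467.1, the rRNA gene on its opposite strand (342 and 32, 3.41), and its neighbour Gm26917 (467 and 63, 2.89) were higher too. Gm26870, Mir6236, Lars2, CT010467.1 and Gm26917 were under 100 CPM in the other cells, so they passed the limit only through the high-mitochondrial cells. The pseudogene Gm28438, nearly equal to mt-Nd3, stood at 1511 and 254 (2.57).

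Gm42418 (chr17:39846958-39848788, plus strand) is annotated as a long intergenic noncoding RNA in GENCODE and is listed by RefSeq under the 18S ribosomal RNA pseudogene Rn18s-rs5. It shared 1768 of its 1812 words of 20 bases with CT010467.1 and 904 with AY036118, both on the opposite strand, and 0 with either on the same strand. The source of the UMIs of these genes was not checked and is left uncertain. Gm42418 shared no such word with Lars2, Mir6236, Gm26870, Gm26917, mt-Rnr1 or mt-Rnr2. Of the Combo high-mitochondrial cells 1583 of 1586 (99.8%) had a Gm42418 UMI, and the 10 cells with the most held 6.99% of its UMIs. Its level there was 25178, 22848, 23846, 27783 and 27707 CPM over the 5 steps of mitochondrial share, against 12513 in cells at 10% to 20% and 1763 in cells under 2%. Its level in the Olaparib + LLY-283 library was 9865 and 1044 CPM (3.24), with a UMI in 77 of 86 cells. Nearly all high-mitochondrial cells of the Combo library, and most of the other, thus had Gm42418 UMIs. These shares are unthinned and no share of other cells is given beside them. They are therefore not read as particular to high-mitochondrial cells.

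The other higher genes of the Combo library named here, apart from Acta1, had most of their UMIs in a few cells. S100a9 stood at 3616 and 1110 CPM in the Combo library, S100a8 at 2102 and 737, the cytokine Il1b at 1117 and 364 and the chemokine Cxcl2 at 1748 and 863. The chemokine Ccl4 stood at 560 and 135, Ccl3 at 293 and 96, the lipolysis inhibitor G0s2 at 492 and 127 and the hydroxycarboxylic acid receptor Hcar2 at 176 and 42. The 10 cells with the most UMIs of a gene held 61.2% of those of S100a9, 65.8% of S100a8, 80.5% of Ccl4 and 72.2% of G0s2. When the marker-rich cells were left out, the count fell from 23 to 12 higher genes and rose from 2 to 4 lower genes, of 1584. The cells left out had been chosen for lists that hold some of these genes. Acta1, the skeletal muscle actin, stood at 208 and 43 CPM, with 160 UMIs in 118 cells and 32.5% of them in the 10 cells with the most. Hcar2, Ccl3 and Acta1 were under 100 CPM in the other cells and passed the limit only through the high-mitochondrial cells.

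The 2 lower genes of the Combo library were close to the limit. Ly6a, a surface protein of stem and activated cells, stood at 225 and 476 CPM (log2 ratio −1.08), and Tecr, an enzyme of long-chain fatty acid synthesis, at 81 and 167 (−1.04). Scaled by the median of ratios over genes, which takes away the median log2 ratio of −0.08, neither was lower and 28 genes were higher. The immediate early genes Fos (480 and 888) and Jun (453 and 820) were among the next in order but did not reach 2-fold.

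In the Olaparib + LLY-283 library the higher genes again included Gm28438, Lars2, Gm26870, Mir6236, Gm26917 and Gm42418, most of them on few UMIs. Gm28438 stood at 2800 and 146 CPM (log2 ratio 4.27) and Lars2 at 497 and 31 (4.06, 19 UMIs). Gm26870 and Mir6236 had 9 UMIs each in these cells. S100a8 stood at 4134 and 197 CPM and S100a9 at 6149 and 309. Asprv1, Hdc, Acod1, Samsn1, Ptprc and Clec4e were also among the leading genes. The lower genes were led by Psmb2, Ssr2, Slc2a1, Tmem14c, Fundc2 and Srp72, all on few UMIs, and included Jun (288 and 916 CPM).

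Of the genes that were higher, 19 were so in both libraries, which is 82.6% of those of the Combo library and 6.99% of those of the other. They were Gm28438, Gm26870, Mir6236, Lars2, Gm26917 and Gm42418, and G0s2, Il1b, S100a8, S100a9, Cxcl2, Hcar2, Ifitm1, Srgn, Ccl3, Ccl4, Wfdc17, Plxnb2 and Gm5483. Ly6a was lower in both. Over all genes, 16.4% were higher and 4.63% lower in the Olaparib + LLY-283 library, and several of the 19 passed the limit only through the high-mitochondrial cells. Gm28438 may hold UMIs of mt-Nd3, as given above. Of 1398 genes used in both libraries, 0 were higher in one and lower in the other. With 23 higher and 2 lower genes in the Combo library, these shares alone would give few or none, and nothing is read from it.

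**Figure D5:**
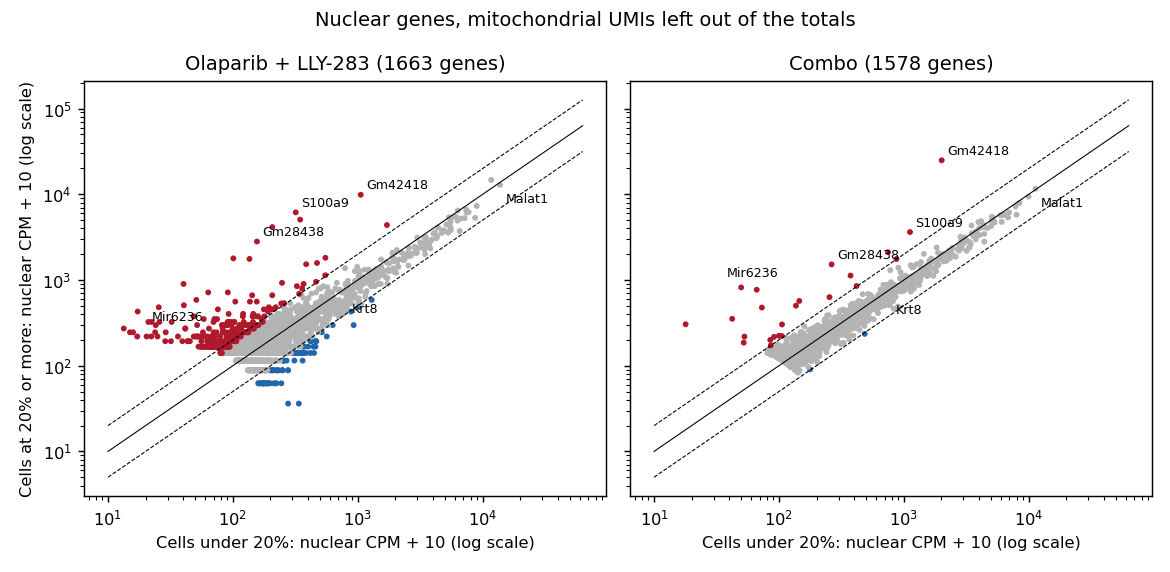
Level of each nuclear gene in high-mitochondrial cells (y axis) against cells under 20% (x axis), both as CPM of nuclear UMIs plus 10 on log scales, for the 1663 and 1578 genes used; dashed lines mark 2-fold, red points are higher and blue points lower in high-mitochondrial cells. The Combo points lie close to the diagonal except for 23 higher and 2 lower genes, while the Olaparib + LLY-283 points spread widely at low levels.

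Malat1, Actb and Krt8 differed by less than 2-fold in both libraries. Malat1, a long noncoding RNA kept in the nucleus, stood at 11601 CPM in high-mitochondrial and 11295 in other cells of the Combo library, and at 12848 and 13748 in the other. Beta-actin, Actb, stood at 5767 and 7979, and at 5312 and 8679. Krt8 stood at 699 and 739 (log2 ratio −0.08, or 0.00 when scaled by the median of ratios), and at 733 and 777 in the other (−0.06, or −0.15 so scaled).

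Among gene lists taken by function, the nuclear genes of the respiratory chain are the closest partners of the mitochondrial mRNAs. Of 108, 67 were used in the Combo library and 0 were higher or lower, with a median log2 ratio of −0.01 against −0.08 over all genes. Cox4i1, a subunit of cytochrome c oxidase, stood at 1403 and 1186 CPM and Cox8a, another, at 1028 and 1348. Of the list in the Olaparib + LLY-283 library 63 were used, with Sdha higher, Ndufb8 lower and a median of −0.22 against 0.09 over all genes, of which 16.4% were higher and 4.63% lower. Mitochondrial ribosomal proteins (23 of 83 used, median −0.24) and cytosolic ribosomal proteins (82 of 92, median −0.15) had 0 past 2-fold in the Combo library, where 1.46% of all genes were higher and 0.127% lower.

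Genes of stress and death were also measured. In the Combo library the lists of cytosolic heat shock (10 of 12 used), endoplasmic reticulum chaperones (10 of 16), ATF4 stress (3 of 14), p53 targets (4 of 15), mitophagy and cell death (4 of 16), antioxidants (14 of 17) and immediate early genes (15 of 21) each had 0 past 2-fold. With 1.46% of all genes higher and 0.127% lower, lists of this size would have few or none, and nothing about the lists is read from it. The same held for the lists of collagens and matrix, actin cytoskeleton, glycolysis, interferon-stimulated genes and proliferation. In the list of nuclear-retained noncoding RNAs, Gm42418 was the 1 higher of 4 used. Its UMIs are of uncertain source, as given above, and nothing is read about that list. Of the Olaparib + LLY-283 lists, 5 of 10 collagen and matrix genes used were higher (Col5a1, Col1a2, Col6a2, Col1a1 and Lamb1, list median 0.78 against 0.09 over all genes), where 16.4% of all genes were higher. These too rested on part of the cells, with 63.5% of Col1a2 UMIs in 10 of the 86 cells and 349 UMIs of the list in the 36 cells under 80% rRNA against 65 in the other 50. Of 16 immediate early genes used there, Btg2, Atf3 and Zfp36 were higher and Jun and Jund lower, beside 16.4% and 4.63% of all genes.

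Shallow cells under 20% were the closest in depth, and against them the libraries gave different counts. Against the 661 Combo cells under 20% with fewer than 1000 nuclear UMIs, 2 of 1647 genes were higher (0.121%) and 53 were lower (3.22%). The higher genes were Gm28438, which may hold UMIs of mt-Nd3, and Retnlg, a neutrophil gene of which 10 cells held 96.6% of the UMIs. Gm42418 stood at 24895 CPM in high-mitochondrial and 18098 in shallow cells (log2 ratio 0.46), Mir6236 at 810 and 576, Lars2 at 760 and 544 and Gm26870 at 294 and 359. These RNAs of the Combo library were thus less than 2-fold apart between high-mitochondrial and shallow cells, whereas Gm28438 stood at 1511 and 466 CPM. Of its 1161 UMIs, 831 lay in the 138 cells under 80% rRNA (7425 CPM), and the other 1448 cells stood at 503. The lower genes were led by red cell and muscle genes, with Hbb-bs at 12 and 614 CPM, Ckm at 56 and 624 and Acta1 at 208 and 1738, followed by Tnnt3, Mylpf, Tnnc2, Myl1, Des and Tnni2. Malat1 stood at 18845 CPM in the shallow cells. In the Olaparib + LLY-283 library 277 of 1643 were higher (16.9%) and 120 were lower (7.3%), and Malat1 stood at 37234 in the shallow cells. There Gm42418 stood at 9865 and 4085 CPM (1.27).

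Comparisons within a marker class were possible in the Combo library, where keratin, S100a8 or S100a9 and Col3a1 classes each had at least 50 high-mitochondrial cells. Among cells with a keratin as their only marker, 60 of 1589 genes were higher (3.78%) and 28 were lower (1.76%). Among those with S100a8 or S100a9, 20 of 1582 were higher (1.26%) and 18 were lower (1.14%). Among those with Col3a1, 93 of 1636 were higher (5.68%) and 52 were lower (3.18%). In each of these classes Gm26870, Mir6236, Lars2, Gm42418, CT010467.1 and Gm26917 led the higher genes. The limit of 100 CPM on the mean applied here too, and genes could again pass it through the high-mitochondrial cells alone. Gm42418 stood at 27006 and 1564 CPM in the keratin class, 24104 and 2765 in the S100a8 or S100a9 class and 23289 and 2298 in the Col3a1 class, so its level was alike whichever marker the cell carried.

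Lower genes of the Col3a1 and of the S100a8 or S100a9 class are given as single genes, and no theme was tested among them. In the Col3a1 class, the matrix proteoglycan Dcn stood at 102 CPM in high-mitochondrial and 641 in other cells, and the adipokine Rarres2 had 0 UMIs against 263 CPM. Fstl1, Mgp and Bgn were also lower. In the S100a8 or S100a9 class the chemokine Cxcl3 stood at 235 and 898 CPM and Fos at 452 and 1104, and Gm5483, Gadd45b, Btg2 and Zfp36 were lower. Summed over its list, the fibroblast genes stood at 5589 and 7005 CPM in the Col3a1 class, and the neutrophil genes at 12427 and 17478 in the S100a8 or S100a9 class. Apoe, made by macrophages, was higher in the high-mitochondrial cells of the keratin and Col3a1 classes, and Acta1 in those of the S100a8 or S100a9 and Col3a1 classes.

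When all cells were clustered on nuclear genes, 1 cluster held 1469 of the Combo high-mitochondrial cells (92.6%) and 51 of those of the Olaparib + LLY-283 library (59.3%). They were 71.8% and 11.9% of its cells from each library. It is left unnamed, since its leading genes were Mir6236, Lars2, Gm42418, CT010467.1 and Gm26917 and not those of a cell type. A second cluster held 36 Combo and 15 Olaparib + LLY-283 high-mitochondrial cells, and the next held 14 of each. The clusters were made with the genes compared here, and give no separate evidence on them.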

How the data were processed

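The authors made the files with Cell Ranger (6.1.2 in the matrix header) on mm10, and per the labels also used bcl2fastq 5.0.1 and Seurat 4.1.0. The deposited values are raw UMI counts per gene and cell, with no cell of fewer than 500 UMIs. High-mitochondrial cells had at least 20% of UMIs on genes named mt-. These cells and all gene lists were chosen with earlier results of these data known. CPM and thinned counts used nuclear UMIs only. Log2 ratios had 0.5 UMI added to each sum. Named genes were the 10 with the largest log2 ratio in each direction of each comparison, the lineage markers, the mitochondrial genes, and from each list its most abundant genes and those past 2-fold in both libraries. Genes named beside shallow cells, from those past 2-fold in 1 library and in the split at 80% rRNA were added after their values had been seen.

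Scrublet marked 0 cells at its automatic threshold, so doublets were kept, and 1 alternative left out the highest scores of the cells under 20% up to 0.8% per 1000 cells (2055 and 284 cells). Clusters were made by the Leiden method at a resolution of 1.3 on 2000 variable nuclear genes and 30 principal components. All 55413 nuclear gene IDs matched GENCODE M21, whose positions are on GRCm38. The work used Python 3.11.15, scipy 1.17.1, pandas 2.3.3 and scanpy 1.11.5. Each group was 1 library, so no test was made. The gene comparison was checked on simulated data. Poisson and Clopper-Pearson intervals are exact at 95%.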

Additional observations from a re-analysis of the deposited data

How the results depend on the processing

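Values are given for the Olaparib + LLY-283 library first and the Combo library second. With the limit at 10% the share of high-mitochondrial cells was 1.68% and 23.4% and their median nuclear depth 625 and 423 UMIs. With the limit at 30% the shares were 0.304% and 17.6% and the medians 313 and 405. With mitochondrial rRNA left out, an alternative added after the data had been seen, the shares were 0.0496% and 0.716% and the medians 358.5 and 502.5. The share of the Combo library was the larger under each of these limits.

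The shares of cells with a marker moved with the depth they were read at. Without thinning, keratins were found in 32.6% and 30.3% of high-mitochondrial cells, and in the Combo library Tyrobp in 6.94%, S100a8 or S100a9 in 46.7% and Col3a1 in 23.6%. Thinned to 100 nuclear UMIs, the Combo shares were 8.32% for keratins, 1.95% for Tyrobp, 14.9% for S100a8 or S100a9 and 5.30% for Col3a1, and those of the other library 3.49% for Tyrobp and 22.1% for S100a8 or S100a9. Thinned to 1000, they were 33.9%, 33.9%, 66.1% and 35.7% in the Combo library, over the few cells that reach that depth. No such value was computed for the other library, where too few cells reach it. In the Olaparib + LLY-283 cells with 80% or more mitochondrial rRNA, a split added later, the shares were 32.3% for keratins, 25.8% for Tyrobp, 64.5% for S100a8 or S100a9 and 6.45% for Col3a1.

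Counts of genes past 2-fold in either direction depended on the filter on low values. At a mean of at least 50 CPM they were 1064 in the Olaparib + LLY-283 library, where 349 were past it at 100 CPM, and 55 in the Combo library, where there were 25. At 200 CPM they were 99 and 14, and with no filter 21105 and 15221. With 5 UMIs added the count of the Olaparib + LLY-283 library was 630. In the Combo library it was 49 with the limit at 10%, 142 with a mean over cells, 16 without the marker-rich cells and 55 against shallow cells, the last 2 added later. Within the Combo keratin class 88 genes became 354 at 50 CPM, 18 at 200 CPM, 13712 with no filter, 185 with 5 UMIs added, 134 with the limit at 10% and 142 with ribosomal protein genes out of the totals. Within the S100a8 or S100a9 class 38 became 134, 15 and 9692 under the 3 filters, 63 with the limit at 30% and 536 with a mean over cells. Within the Col3a1 class 145 became 556, 33 and 13157, and 289 with 5 UMIs added. The cause of these changes was not tested. The other 62 values moved by less than 1.5 times or less than their interval. Scaling by the median of ratios took away a median log2 ratio over all genes of 0.09 and −0.08. Lineages taken from clusters gave no value, since 1 cluster alone held 50 or more high-mitochondrial cells.

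No paired analysis was possible because each group was 1 library. Genes near 100 CPM rest on few UMIs in the Olaparib + LLY-283 library, and the minimum of 500 UMIs decides which shallow cells were seen at all.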

Other observations

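Nuclear UMIs were also summed by gene type, with single genes named above holding much of these sums. Long intergenic noncoding RNAs stood at 42487 CPM in the Combo high-mitochondrial cells and 18586 in cells under 20%, and at 29463 and 20296 in the Olaparib + LLY-283 library. MicroRNA genes stood at 849 and 80, and at 288 and 66. Unprocessed pseudogenes, the class of Gm28438, stood at 1595 and 292, and at 2904 and 179. In the Combo high-mitochondrial cells Gm42418 held 19125 of the 32639 UMIs of the first type, Mir6236 622 of 652 and Gm28438 1161 of 1225. In those of the other library they held 377 of 1126, 9 of 11 and 107 of 111. Nothing is therefore read about these types as a whole. Gm28438 itself stood at 7425 CPM in the Combo cells with under 80% rRNA among mitochondrial UMIs and at 503 in the others, and at 5066 and 524 in the Olaparib + LLY-283 library, so it followed the mitochondrial mRNA side of that split and not the rRNA side. Since its UMIs may come from mt-Nd3, a mitochondrial mRNA, nothing is read from this.

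In the keratin class of the Combo library the basement membrane collagen Col4a1 was among the higher genes, but 1 cell held 21 of its UMIs. Malat1 stood at 51613 CPM in the Combo cells at 10% to 20% mitochondrial UMIs, and at 18090, 11014, 9371, 8943 and 8438 over the steps from 20% upwards. Within the cluster that held most high-mitochondrial cells, 117 of 1441 genes were higher and 16 lower in them than in the cells under 20% of the same cluster in the Combo library, and 448 and 89 of 1630 in the other.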
